A study of Bos taurus with 5 samples.

Results

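Osteopontin (SPP1) and 7 transcription factors (RUNX2, SOX9, MSX1, MSX2, PRRX1, TWIST1 and ZIC4) were followed through 5 RNA sequencing libraries from cattle (Bos taurus). All of these factors but ZIC4 act in mesenchyme and the developing skeleton, and the role of ZIC4 is given below. Each library has a different tissue label (brain, skin, lung, heart or limb), so there is 1 library per label. Per the labels, lysis and pre-amplification of cells and the preparation of libraries followed the C1-HT protocol of Fluidigm, a microfluidic chip system. How many cells and animals stand behind a library, their age and breed, and whether the cells were cultured are details that the sources used here do not give. The 8 genes are entries of a table of 27607 genes, matched by gene symbol, and each symbol matched 1 entry. They were chosen with the values below already known, so their levels are a description of these libraries. With no replicates, no value has an error and no difference has a p-value.

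Bone and cartilage arise from mesenchymal cells, and the lineage such a cell takes is set largely by transcription factors. RUNX2 is required for the formation of bone-forming osteoblasts and SOX9 for cartilage. MSX1 and MSX2, homeobox factors that act with bone morphogenetic protein (BMP) signals, PRRX1, a homeobox factor of limb and facial mesenchyme, and TWIST1, a helix-loop-helix factor that restrains RUNX2, act in earlier progenitors. ZIC4 is a zinc finger factor of the dorsal neural tube and cerebellum that is also active in some mesoderm. Osteopontin is a secreted phosphoprotein of bone matrix that cells bind through integrins and CD44, and macrophages and several epithelia also make it.

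The unit was taken to be FPKM, fragments per kilobase of transcript scaled to the mapped total, by elimination, since the table names no unit. Genes above 0 numbered between 5109 in the skin-labelled and 6634 in the heart-labelled library. The total of reads is unknown, but low values in the brain- and heart-labelled libraries were spaced as whole reads would be. At the best match, the depth under the heart label was 81.0% of that under the brain label, where 1 read was worth a median of 7.33 FPKM. This rests on 275 of 3557 genes, against a median of 58.5 at other offsets, and is rough. The worth of 1 read also differs with transcript length. Ratios of reads were taken in lowest terms, which can overstate it. A value of a few FPKM can thus be a single read of a long transcript, and a gene listed at 0 can be expressed below what these libraries could show. Markers did not settle the tissue labels. In the library with the matching label, 0 of 6 neuronal, 1 of 5 keratinocyte, 0 of 5 alveolar, 1 of 6 cardiomyocyte and 1 of 5 skeletal muscle markers were above 0. Only 18.5% (skin label) to 24.0% (heart label) of all genes were above 0 in a library, so lists this short can neither bear out nor refute a label. Each library is thus named by its label only.

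SPP1 (ENSBTAG00000005260) had the highest value of the 8 genes. It stood at 1753 FPKM under the limb label, 886 FPKM under the heart label, 93.1 FPKM under the lung label and 39.7 FPKM under the brain label, and it was listed at 0 in the skin-labelled library. The values fell into a high pair of libraries (limb and heart labels), a lower pair (lung and brain labels) and the skin label at 0. The limb-labelled value was 1.98 times the heart-labelled value, and that was 9.52 times the lung-labelled value. From the brain- to the limb-labelled library the level spanned 44.1 times by the deposited values, and the difference in log2(FPKM + 1) was 5.43. In the limb- and heart-labelled libraries SPP1 was higher than 97.8% and 96.6% of the genes above 0, and in the brain-labelled library than 62.1%. In such libraries, fewer cells of a type and less RNA per cell cannot be told apart. Of 10 macrophage markers, among them CD68, CSF1R and C1QA, 0 were above 0 in any library, but 64.2% of all genes were also at 0 in every library. The cell source of SPP1 was not tested.

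**Figure D1:**
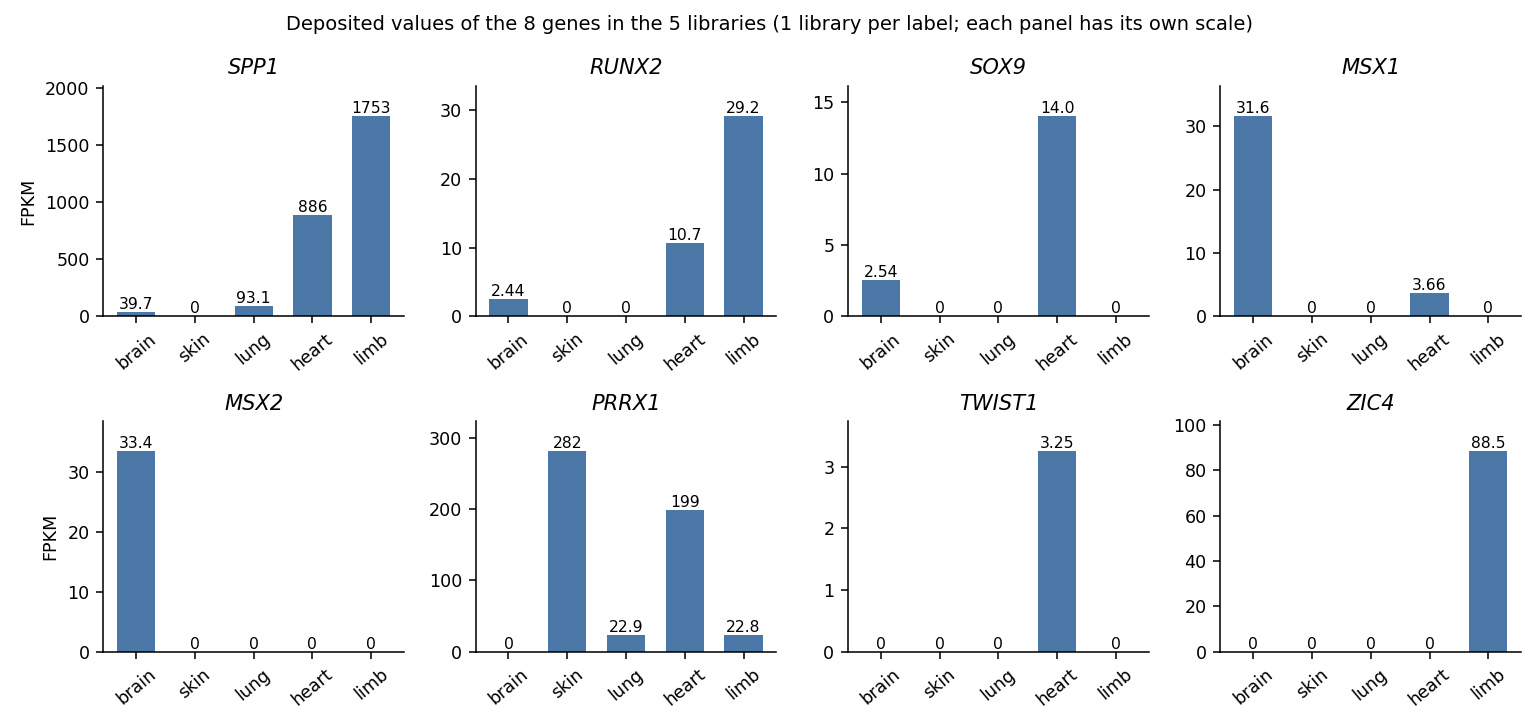
Deposited FPKM (y axis, starting at 0, with its own scale in each panel) of the 8 genes in the 5 libraries (x axis, by label). Each bar is 1 library, so there are no error bars. SPP1 reaches 1753 FPKM under the limb label, PRRX1 282 FPKM under the skin label, and MSX2, TWIST1 and ZIC4 are above 0 in 1 library each.

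RUNX2 (ENSBTAG00000004104), the regulator of osteoblast formation, stood at 29.2 FPKM under the limb label, 10.7 FPKM under the heart label and 2.44 FPKM under the brain label. It was listed at 0 in the skin- and lung-labelled libraries. The order of limb, heart and brain labels was that of SPP1, a gene known as a target of RUNX2, although SPP1 was above 0 in the lung-labelled library and RUNX2 was not. The limb-labelled value of RUNX2 was 2.74 times the heart-labelled value. Even at its highest, RUNX2 was above only 46.5% of the genes above 0 in that library. The brain-labelled value lay below the median worth of 1 read given above, and the heart-labelled value was not far above it.

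SOX9 (ENSBTAG00000045824), the regulator of cartilage formation, was above 0 in 2 libraries, at 14.0 FPKM under the heart label and 2.54 FPKM under the brain label. The heart-labelled value was 5.53 times the brain-labelled value, which again was below the median worth of 1 read in that library. The heart-labelled value can itself rest on a few reads, so this ratio is uncertain. The limb-labelled library, with the highest RUNX2 and SPP1, listed SOX9 at 0.

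The closely related homeobox genes MSX1 and MSX2 were highest under the brain label. MSX1 (ENSBTAG00000010875) stood at 31.6 FPKM under the brain label and 3.66 FPKM under the heart label, a ratio of 8.64, and at 0 in the other 3. MSX2 (ENSBTAG00000013873) stood at 33.4 FPKM under the brain label and at 0 in the other 4. In the brain-labelled library the pair lay close together, above 57.0% and 58.0% of the genes above 0. The limb-labelled library listed both at 0.

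PRRX1 (ENSBTAG00000004570), the regulator of limb and facial mesenchyme, had the second highest value of the 8 genes. It stood at 282 FPKM under the skin label, 199 FPKM under the heart label, 22.9 FPKM under the lung label and 22.8 FPKM under the limb label, and it was listed at 0 in the brain-labelled library. The skin- and heart-labelled values differed by a ratio of 1.42 and the lung- and limb-labelled values were nearly equal, with no replicates to say how much such values vary. PRRX1 and SPP1 were each above 0 in 4 libraries, but the library at 0 differed. Of the 8 genes, only PRRX1 was above 0 under the skin label, where SPP1 was at 0. The limb-labelled library, which was highest for SPP1, had the lowest PRRX1 value above 0.

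TWIST1 (ENSBTAG00000046922) was listed at 3.25 FPKM under the heart label and at 0 in the other 4. The heart-labelled value lay below the median worth of 1 read given above for the brain label, so it may be a single read. By the same rough estimate the heart-labelled library was shallower than the brain-labelled library, although more genes were above 0 in it (6634 against 6599). Only 13.2% of the genes above 0 in the heart-labelled library were lower. ZIC4 (ENSBTAG00000014749) was listed at 88.5 FPKM under the limb label and at 0 in the other 4. It was above 72.3% of the genes above 0 there, and after SPP1 it was the second highest of the 8 in that library. Patterns of this kind were common: 2443 genes, 24.7% of the 9877 genes above 0 in any library, were above 0 in 1 library only, 663 of them under the heart label and 373 under the limb label.

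The 8 genes were unevenly spread over the libraries. Of the 8, 6 were above 0 in the heart-labelled library (all but MSX2 and ZIC4), 5 in the brain-labelled, 4 in the limb-labelled, 2 in the lung-labelled and 1 in the skin-labelled library. Among the 9877 genes above 0 in any library, the shares were 67.2%, 66.8%, 53.9%, 60.7% and 51.7% in the same order. None of the 8 was above 0 in all 5 libraries, as 26.4% of those 9877 genes were. The skin- and lung-labelled libraries, with the fewest of the 8 genes, also had the highest summed level of 10 proliferation markers, at 1298 and 1440 FPKM with 9 of 10 markers above 0 in each. The sum was 10.2 FPKM under the brain label, 34.8 FPKM under the heart label and 131 FPKM under the limb label, where TOP2A, CCNB1 and BIRC5 were at 0. The part of these differences in the levels of the 8 genes was not tested.

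**Figure D2:**
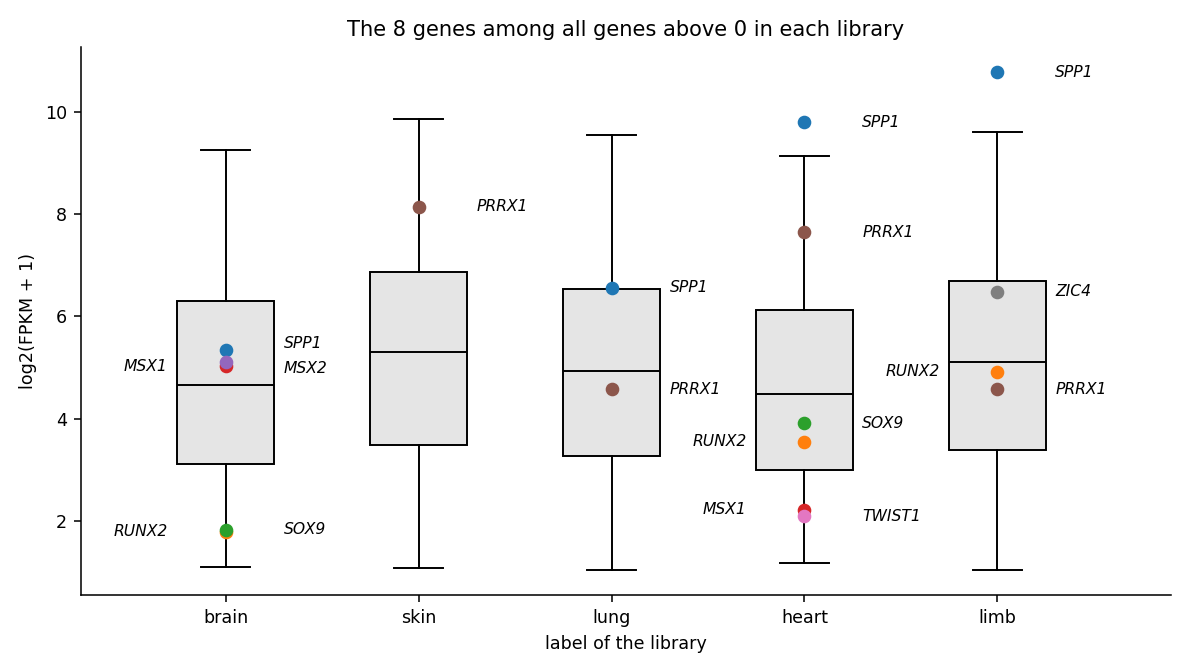
Level of the 8 genes (coloured points, log2(FPKM + 1) on the y axis) among all genes above 0 in each library (x axis, by label). Boxes span the quartiles with the median as a line, whiskers run from the 5 to the 95 percentile, and genes at 0 are not drawn. SPP1 lies above the upper whisker in the heart- and limb-labelled libraries, while RUNX2 and SOX9 in the brain-labelled and MSX1 and TWIST1 in the heart-labelled library lie below the box.

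To set the 8 genes beside all others, enrichment was defined as a level of 10 FPKM or more that, with 1 added to both values, was at least 4 times that of each other library. By this rule 4 of the 8 genes were enriched in 1 library, against 6.54% of all 27607 genes and 24.1% of the 7497 genes that reached 10 FPKM in any library. The 4 were MSX1 and MSX2 in the brain-labelled library (1.24% of all genes), SOX9 in the heart-labelled library (1.33%) and ZIC4 in the limb-labelled library (1.14%). Since the genes were chosen with these values known, nothing is read from the contrast with the background. SPP1, RUNX2 and PRRX1 were below the rule because the heart-labelled library was also high in them, and TWIST1 because it did not reach 10 FPKM. SOX9 was close to the limit, with a difference of 2.09 on the log2(FPKM + 1) scale where the rule asks for 2, and adding 10 in place of 1 left 0.94. A library was called depleted of a gene when each other library had at least 10 FPKM and, after 1 was added, at least 4 times its value. SPP1 was depleted in the skin-labelled library (0.985% of all genes) and PRRX1 in the brain-labelled library (0.192%).

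Over the 10 pairs of libraries, a gene was counted as different when the higher value was at least 10 FPKM and the ratio after adding 1 at least 4. The 8 genes met this in 37 of 80 combinations of gene and pair, against 9.77% of the combinations of all genes. Of all genes, 64.2% were at 0 in every library and could not meet it, while each of the 8 genes was above 0 in at least 1. The 8 genes were also chosen with these values known, so nothing is read from this contrast or from the shares by pair below. SPP1 and PRRX1 differed in 8 of 10 pairs each, RUNX2 in 5, SOX9, MSX1, MSX2 and ZIC4 in 4 each and TWIST1 in 0. The brain- and limb-labelled libraries had the most differences, 6 of the 8 genes against 9.25% of all genes. MSX1 and MSX2 were higher under the brain label, and SPP1, RUNX2, PRRX1 and ZIC4 under the limb label. For the brain and heart labels 5 of the 8 differed (7.72% of all genes), MSX1 and MSX2 again higher under the brain label and SPP1, SOX9 and PRRX1 under the heart label. Between the heart- and limb-labelled libraries 3 differed (9.24%), SOX9 and PRRX1 higher under the heart label and ZIC4 under the limb label. Between the brain- and skin-labelled libraries (10%), the skin- and limb-labelled libraries (10.2%) and the lung- and heart-labelled libraries (10.2%) 4 of the 8 differed. The pairs of brain and lung labels (9.78%), skin and heart labels (10.3%) and lung and limb labels (10.8%) had 3 each. The fewest, 2, differed between the skin- and lung-labelled libraries (10.2%), PRRX1 higher under the skin label and SPP1 under the lung label.

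**Figure D3:**
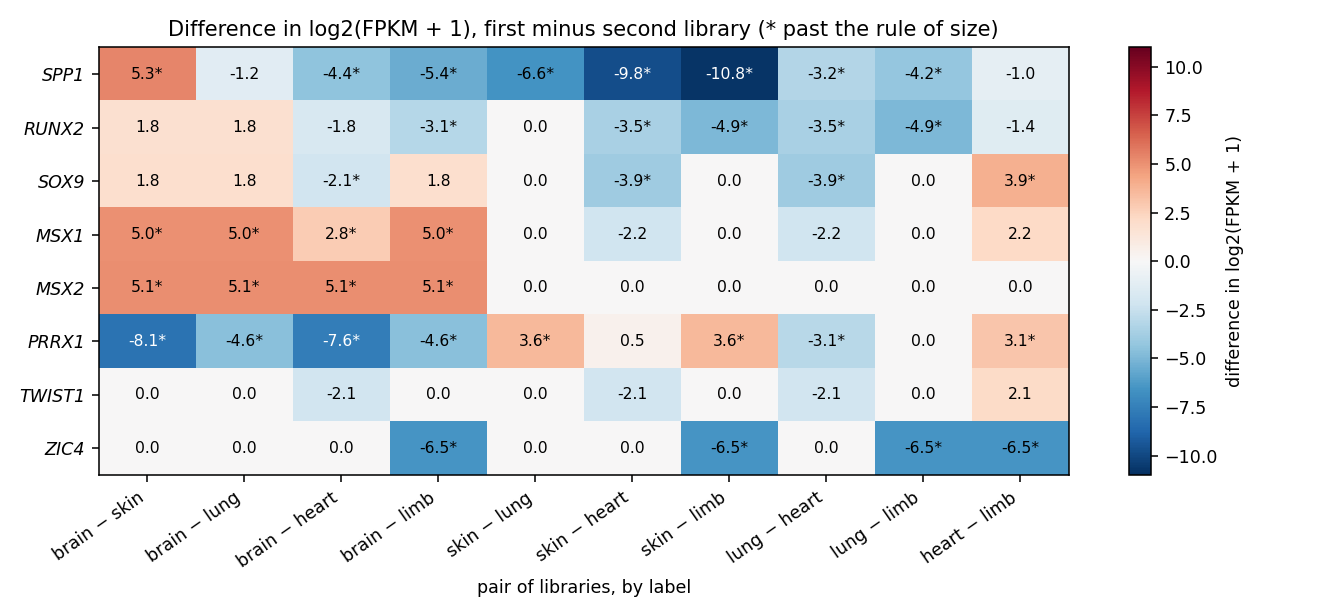
Difference in log2(FPKM + 1), first minus second library, for the 8 genes (rows) in the 10 pairs of libraries (columns, by label). Red marks a higher first and blue a higher second library, an asterisk marks differences past the rule of size, and a difference from a library at 0 depends on the 1 that was added. SPP1 and PRRX1 carry 8 asterisks each and TWIST1 carries 0.

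Genes that act with the 8 were then listed by role, in 10 lists of 110 genes, which gave 111 entries because ZEB2 has 2. Of these, 62 were at 0 in every library and 49 were above 0 in at least 1 library, or 44.1%, against 35.8% of all genes. By the rules above 6 entries (5.41%) were enriched in 1 library, against 6.54% of all genes. Another 4 entries were depleted in 1 library, by a rule that 3.03% of all genes met. In 7 of the 10 lists the median level was 0 FPKM in all 5 libraries, as it was over all genes.

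The relatives of osteopontin in mineralised tissue, IBSP, DMP1, DSPP and MEPE, were at 0 in all 5 libraries, so SPP1 was the only gene of this family above 0. Over all genes, 64.2% were at 0 in all 5 libraries. Of 9 genes for osteopontin receptors, 6 were above 0 in at least 1 library. CD44, the hyaluronan receptor that also binds osteopontin, stood at 135 FPKM under the limb label, 95.7 FPKM under the brain label, 76.0 FPKM under the heart label, 14.2 FPKM under the lung label and 4.65 FPKM under the skin label. It was thus highest and lowest in the same libraries as SPP1. ITGB1, the integrin beta chain with the most partners, was above 0 throughout, at 533 FPKM under the heart label, 331 FPKM under the brain label and 138 to 141 FPKM in the other 3. ITGA5, the alpha chain of a fibronectin receptor, was above 0 in the limb- and heart-labelled libraries only, at 26.05 and 10.2 FPKM. ITGAV, the alpha chain of the vitronectin receptors, ran the other way, at 38.65 FPKM under the skin label, where SPP1 was at 0, and below 1 FPKM in the other 4. The list of receptors had 6 of 9 entries above 0 in the heart-labelled, 5 in the brain-, skin- and limb-labelled and 3 in the lung-labelled library.

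Of 15 partners of RUNX2 and genes of osteoblasts, 10 were at 0 in every library. That is near the share of 64.2% over all genes, so nothing is read from this count. Among the 10 were SP7, a regulator downstream of RUNX2, and the bone genes ALPL, BGLAP and PHEX. CBFB, the partner that RUNX proteins need to bind DNA stably, stood at 19.4 FPKM under the heart label, 3.76 FPKM under the skin label and 2.99 FPKM under the lung label. It was listed at 0 in the limb-labelled library, which had the highest RUNX2. ATF4, a stress-response factor that also acts in osteoblasts, was highest in the limb-labelled library at 1148 FPKM, with 581 FPKM in the brain-, 579 FPKM in the heart-, 299 FPKM in the lung- and 169.6 FPKM under the skin label. The matrix genes of the list, which fibroblasts also express, were highest under the heart label. There SPARC stood at 5472 FPKM, COL1A2 at 523 FPKM and COL1A1 at 191 FPKM, against 2144, 174 and 74.4 FPKM under the limb label. The brain-labelled values, at 3128, 311 and 131 FPKM, were also above those of the limb label. For SPARC the skin-labelled value, at 2890 FPKM, was too.

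Of 15 partners of SOX9 and genes of cartilage, 14 were at 0 in every library, against 64.2% of all genes. The 14 included COL2A1, ACAN, SOX5 and SOX6. The exception was COL11A1, a minor fibrillar collagen, which was lowest in the heart-labelled library at 2.06 FPKM, where SOX9 was highest, and reached 29.0 FPKM under the lung label. All 6 DLX homeobox genes, which share many sites of expression with MSX genes, were at 0 in every library, but 64.2% of all genes were too.

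BMP signalling genes were above 0 for 14 of 21 entries. The ligand gene BMP7, at 18.7 FPKM, the receptor gene ACVR1, at 16.7 FPKM, and the inhibitory SMAD7, at 11.2 FPKM, were enriched in the brain-labelled library, where MSX1 and MSX2 were highest. With 1 read worth a median of 7.33 FPKM there, each of these 3 values can rest on a few reads. A link between these genes and MSX1 or MSX2 was not tested. BMP4 was at 0 in every library. The ID genes, inhibitory helix-loop-helix factors induced by BMP, differed among themselves. ID3 stood at 431 FPKM under the lung label, 346 FPKM under the skin label, 228 FPKM under the heart label and 25.5 FPKM under the limb label and at 0 in the brain-labelled library. ID1 ranged from 13.5 to 108 FPKM in the same 4 libraries and was also at 0 under the brain label. ID2 was above 0 throughout, at 437 FPKM under the lung label, 387 FPKM under the heart label, 96.2 FPKM under the brain label, 74.3 FPKM under the skin label and 22.1 FPKM under the limb label. ID4 was above 0 under the heart and brain labels only, at 23.9 and 6.45 FPKM. SMAD4, the common partner of receptor-activated SMAD proteins, was at 25.2 to 38.1 FPKM in 4 libraries and at 0 in the skin-labelled library.

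Among 16 regulators of limb and facial mesenchyme 11 were at 0 in every library, near the share of 64.2% over all genes, so nothing is read from this count. The 11 included PRRX2, TBX5, TBX4, PITX1 and SHOX2. MEIS1, a homeobox factor of the proximal limb and blood stem cells, was above 0 throughout, from 0.45 FPKM under the limb label to 109 FPKM under the lung label. LHX2, at 37.1 FPKM, was enriched under the lung label. The partners of TWIST1 that are E proteins, broadly expressed helix-loop-helix factors, were not above 0 in the heart-labelled library, in which TWIST1 was: TCF3, TCF4 and TCF12 were listed at 0 there. TWIST1 itself may be a single read there, so neither its value nor these zeros are firm. TCF12 stood at 157 FPKM under the skin label, 65.8 FPKM under the lung label and 14.5 FPKM under the limb label. Of 11 ZIC and Hedgehog genes, none reached 10 FPKM and 5 were above 0, but 0 of 11 in the limb-labelled library, where ZIC4 stood at 88.5 FPKM. Only 19.3% of all genes were above 0 in that library.

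Genes of the transition between epithelium and mesenchyme were all above 0 in at least 1 library. VIM, the intermediate filament of mesenchymal cells, stood at 1011 to 2251 FPKM and CDH2 (N-cadherin) at 32.4 to 79.3 FPKM in the 5 libraries. SNAI2, a repressor of E-cadherin, stood at 84.2 FPKM under the skin label, 78.8 FPKM under the heart label, 34.2 FPKM under the limb label and 16.0 FPKM under the brain label and was depleted in the lung-labelled library, where it was at 0. It was thus highest in the same 2 libraries as PRRX1. CDH1 (E-cadherin) was above 0 in the skin-, lung- and heart-labelled libraries, at 55.7, 14.1 and 13.8 FPKM, while the epithelial genes EPCAM, KRT8, KRT18 and KRT19 were at 0 in every library. Each library had 4 or 5 of 9 fibroblast markers above 0, but PDGFRB, THY1, DCN and LUM were at 0 throughout.

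**Figure D4:**
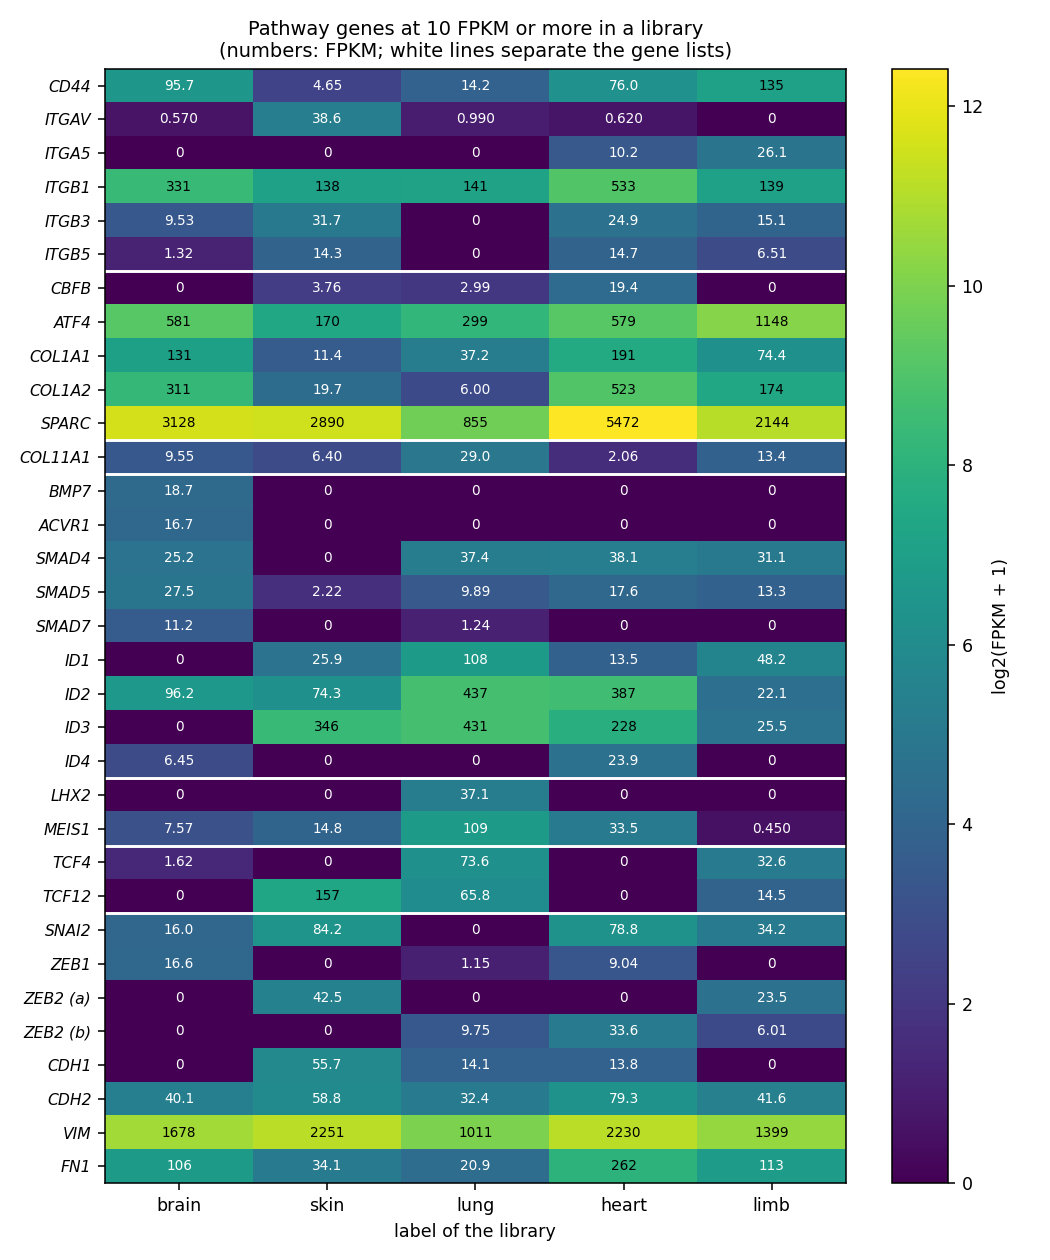
FPKM (numbers) and log2(FPKM + 1) (colour) of the pathway genes that reached 10 FPKM in a library, with genes as rows, grouped by list between white lines, and libraries as columns by label. The 2 entries of ZEB2 are marked a and b. SPARC and VIM are high in every column, while BMP7 and ACVR1 are above 0 in the brain-labelled and ITGA5 in the heart- and limb-labelled column.

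The genes with the most similar profiles were sought among 16876 named genes other than small RNAs, as the smallest root mean square difference of log2(FPKM + 1) over the 5 libraries after each gene's mean was taken off. The nearest to SPP1 were PKIG, an inhibitor of protein kinase A, with a difference of 1.38, POLR1H, a subunit of RNA polymerase I, with 1.39, CTH, an enzyme of cysteine synthesis, with 1.40, TMEM80 with 1.40 and the matricellular protein gene THBS1 with 1.52. All 5 were at 0 in the skin-labelled and highest in the limb-labelled library, and THBS1 stood there at 143 FPKM. Their range was smaller than that of SPP1. Nearest to PRRX1 were CD59, a complement inhibitor, with 0.83, PPP1R14A, an inhibitor of myosin phosphatase, with 0.94, KMT2E with 0.95, OVCA2 with 0.97 and BORCS8 with 1.07. PPP1R14A stood at 1812 FPKM under the skin label and 873 FPKM under the heart label against 26.2 FPKM under the brain label.

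**Figure D5:**
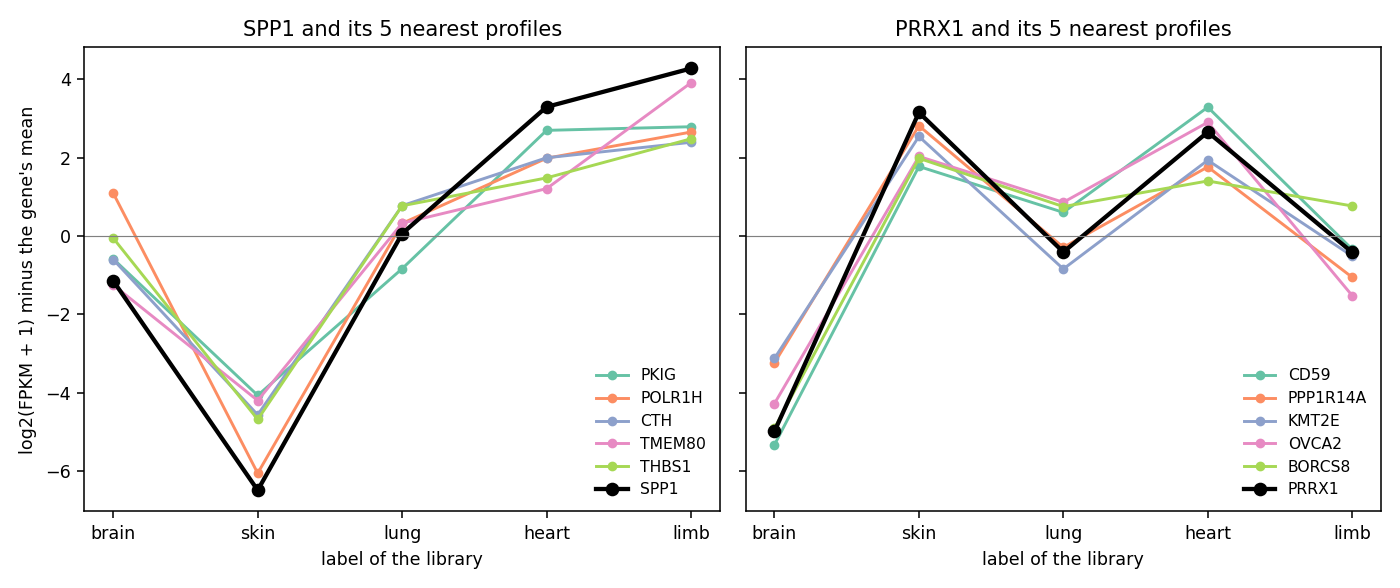
Log2(FPKM + 1) minus the gene's mean over the 5 libraries (y axis) for SPP1 (left, black) and PRRX1 (right, black) and the 5 named genes nearest to each, by label of the library (x axis). Lines only join the values of a gene, since the libraries have no order. All profiles on the left are lowest in the skin-labelled and all on the right in the brain-labelled library.

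The low genes had closer matches. RUNX2 was nearest to PXDC1 (0.25), DZIP1 (0.30), EPC1 (0.31), PHIP (0.32) and CYP27A1 (0.33). SOX9 was nearest to WDR11 (0.10), PRR5L (0.11), PLOD1 (0.13), STK38 (0.16) and SUMF2 (0.16). MSX1 was nearest to KYAT1, at 32.4 FPKM under the brain label and 3.81 FPKM under the heart label, with a difference of 0.020, then DECR1 (0.13), NMUR2 (0.14), CEP89 (0.18) and GIN1 (0.18). RUNX2, SOX9 and MSX1 were at 0 in 2 or 3 of the 5 libraries, and many other genes were at 0 in the same libraries: 325 other genes were above 0 in the brain- and heart-labelled libraries only, as SOX9 and MSX1 were. The pattern of RUNX2 was shared by 267 other genes, that of SPP1 by 507 and that of PRRX1 by 110.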

How the data were processed

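A table of 27607 genes in 5 libraries was deposited. Per the submitters' processing notes, the tools were bcl2fastq, STAR for alignment and RSEM for expression levels, and the build was ARS-UCD1.2. The sources used here give no versions, annotation or filters. The deposited values were taken as FPKM, since 98.7% to 99.1% of the values above 0 were not whole and each library summed to more than the fixed total of TPM. FPKM divides by transcript length, and a few reads on a short transcript give a high value. The unit was inferred and coverage along transcripts was not checked, so levels of different genes compare only roughly.

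Values were used as deposited, and ratios printed for single genes are plain. In the rules of size and on the log2 scale 1 was added first, which understates ratios of low genes. Ratios to a library at 0 are left out. Without counts or replicates, rules of size stood in for tests: at least 10 FPKM and at least a ratio of 4. The 8 genes and the lists were chosen with earlier results of these data known. The text names the 8 genes and the 5 nearest profiles of each of the 8 genes above 0 in at least 2 libraries. List genes that reached 10 FPKM in a library could be named. Which of these are described, and which list or marker genes are named at lower values, was chosen after their values were seen. Spacing of low values was sought between 2 and 200 FPKM, as ratios of whole numbers up to 4 within 0.3%. No counts were recovered, so no counting interval is given. Of the identifiers, 0 matched the RefSeq gene table (ARS-UCD2.0), so no coordinates are given, and that table was used only, by symbol, for which genes lie next to each other. Python 3.11.15, numpy 2.4.6, pandas 2.3.3 and matplotlib 3.10.9 were used.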

Additional observations from a re-analysis of the deposited data

How the results depend on the processing

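No paired analysis was possible because each label has 1 library. The number of the 8 genes enriched in 1 library, 4 as reported, was 2 after adding 10 in place of 1 and at a ratio of at least 8 (MSX2 and ZIC4 in both) and 2 without the brain-labelled library (SOX9 and ZIC4). It was 3 to 6 under the other 11 settings. Without the heart-labelled library SPP1, RUNX2 and PRRX1 passed the rule, with differences of 4.22, 3.13 and 3.57 from the next library on the log2 scale. Over all genes, 1806 were enriched, 803 at a minimum of 30 FPKM, 555 after adding 10 and 3283 at a ratio of at least 2. Combinations of the 8 genes and pairs past the rule, 37 as reported, were 19, 24, 22 and 21 without the brain-, skin-, heart- and limb-labelled library, since fewer pairs remain. Over all genes these combinations, 26972 as reported, were 14343 at a minimum of 30 FPKM and 11988 after adding 10. They were 16823, 15723, 15661, 16640 and 16069 without the brain-, skin-, lung-, heart- and limb-labelled library. The difference of SPP1 between its highest and lowest library above 0 was 4.22 to 5.46 under every alternative run, past the ratio of 4 in each. Of 96 ratios of a gene's highest to its second highest library under the alternatives, 86 stayed on the same side of the rule, 5 no longer passed and 5 newly passed. Ratios without a gene's own highest library are not among the 96. The direction changed in 0, but only rescaling could change it, since the other settings keep the highest library highest. Rescaling by the median ratio shifted the libraries by -0.14 (lung label) to 0.06 (heart label) on the log2 scale, and the same 4 genes passed the rule. Depth limits the values of a few FPKM most.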

Other observations

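The protein-coding genes next to the 8 genes in the ARS-UCD2.0 annotation, 2 on each side, were looked up by symbol. Of these 32 neighbours 25 were in the table, and 16 of the 25 were at 0 in every library. Over all genes 64.2% were at 0 in every library, so nothing is read from this count. SPP1 lies beside MEPE and IBSP, both at 0 throughout, and PKD2, which was below 1 FPKM in the brain- and limb-labelled libraries and at 0 in the other 3. ZIC1, the neighbour of ZIC4, was at 0 in all 5 libraries, including the limb-labelled library with ZIC4 at 88.5 FPKM. SUPT3H, the neighbour of RUNX2, stood at 39.97 FPKM under the lung label and 37.2 FPKM under the brain label and at 4.33 FPKM under the limb label, where RUNX2 was highest. All of the neighbours of MSX1 were at 0 in the brain-labelled library, where MSX1 stood at 31.6 FPKM and only 23.9% of all genes were above 0. GORAB, the neighbour of PRRX1, was at 0 in the brain-labelled library, as PRRX1 was, and also in the limb-labelled library.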
